A study of Homo sapiens with 12 samples.

Results

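The 10 receptor genes described here set or restrain the response of an immune cell to antibody and to contact with other cells, and were followed through 4 groups of the human mast cell line HMC-1. They were the low-affinity IgG receptor genes FCGR2A, FCGR2B and FCGR2C, and the inhibitory receptor genes CEACAM1, CD300A, CD300LF, LILRB1, LILRB4, PILRA and CD200R1, taken by symbol as 10 of the 58381 genes listed. HMC-1 came from a mast cell leukaemia. Its subline HMC-1.1 carries the KIT variant V560G, in the juxtamembrane part of this growth factor receptor, and HMC-1.2 carries V560G together with D816V, in the kinase part. HMC-1.3 was made from HMC-1.2 by CRISPR/Cas9 editing that returned V560G to the normal allele, so that D816V remained on a single allele, and 2 separate lines of it, clone 1 and clone 2, were sequenced. Each of these lines is 1 clone, so a difference between HMC-1.3 and its parent can belong to the KIT allele or to the clone. All cultures were untreated. RNA was sequenced from 3 cultures per group, 12 libraries in all, with 29225900 to 43181402 counted reads per library. The cultures were parallel platings of a line, so the p-values measure the spread between platings.

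An Fc receptor binds the constant part of an antibody. FCGR2A encodes an activating receptor whose own cytoplasmic tail holds an immunoreceptor tyrosine-based activation motif (ITAM), a pair of tyrosines that recruits the kinase SYK once phosphorylated. FCGR2B encodes the inhibitory counterpart, with an inhibitory motif (ITIM) that recruits the phosphatase SHIP-1, the product of INPP5D, and that restrains IgE-driven activation of mast cells when both receptors are brought together. FCGR2C is a hybrid gene, with an outer part like that of FCGR2B and a tail like that of FCGR2A. CD300A, CD300LF, PILRA, CEACAM1, LILRB1 and LILRB4 encode receptors with ITIMs, which mainly recruit the phosphatases SHP-1 and SHP-2 (PTPN6 and PTPN11). CD200R1, the receptor for CD200, inhibits through DOK adaptors instead.

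The coding bases around these tail motifs are shown because they separate the activating from the inhibitory receptors. Those of FCGR2A and FCGR2B were also searched in the FCGR2C transcript. The spliced coding sequence of the main Gencode transcript is given on the coding strand of GRCh38, with up to 30 bases on either side and the codons of the motif in capitals. The ITAM codons of FCGR2A lay at chr1:161518056-161518115 (+), in exon 7, and the ITIM codons of FCGR2B at chr1:161677488-161677505 (+), in exon 8. The ITIM codons lay at chr7:100399794-100399811 (+), exon 7, in PILRA, at chr19:42509202-42509219 and chr19:42509121-42509138 (-), both exon 9, in CEACAM1, and, for the first of 4 matches, at chr17:74481744-74481761 (+), exon 6, in CD300A. The search took a codon for I, L, V or S, any residue, Y, any 2 residues and then I, L or V, after the most hydrophobic stretch of 19 residues. It found 2 matches in CD300LF, 3 each in LILRB1 and LILRB4, and none of this pattern in CD200R1.
FCGR2A ITAM: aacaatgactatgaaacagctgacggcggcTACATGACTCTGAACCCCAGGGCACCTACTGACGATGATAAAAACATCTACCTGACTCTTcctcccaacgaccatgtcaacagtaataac
FCGR2B ITIM: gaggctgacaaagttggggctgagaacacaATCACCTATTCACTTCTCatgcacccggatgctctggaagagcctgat
PILRA ITIM: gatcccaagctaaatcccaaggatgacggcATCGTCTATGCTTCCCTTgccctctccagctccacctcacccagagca
CEACAM1 first ITIM: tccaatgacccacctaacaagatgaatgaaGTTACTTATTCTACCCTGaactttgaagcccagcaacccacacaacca
CEACAM1 second ITIM: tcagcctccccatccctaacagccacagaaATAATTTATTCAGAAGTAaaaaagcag
CD300A first ITIM: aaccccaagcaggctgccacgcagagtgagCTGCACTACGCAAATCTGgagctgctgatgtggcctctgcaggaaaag

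The genes FCGR2A (chr1:161505430-161524013), FCGR2C (chr1:161581339-161605662) and FCGR2B (chr1:161663143-161678654) lie in 1 cluster on the same strand. The whole 120-base window of FCGR2A occurred in the FCGR2C transcript with 0 mismatches, at chr1:161599681-161599800. The best match of the 78-base window of FCGR2B in that transcript had 45 mismatches. Of all 100-base windows of the FCGR2C transcript, 67.3% occurred in another listed gene, most of them in FCGR2B (60.2%). The share was 29.8% for FCGR2B and 8.44% for FCGR2A. The counting program divides such shared reads by estimation, so FCGR2C values, and to a lesser degree those of FCGR2B, depend on it. For PILRA the share was 2.05%, with PILRB, and for CEACAM1, CD200R1 and CD300A it was 0.531%, 1.12% and 0%. PILRB also overlaps PILRA on the same strand, and LIPE-AS1 overlaps CEACAM1 on the other.

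Of the 10 genes, 7 had enough reads to be tested. The filter was applied over all 4 groups at once. CD200R1 passed it only through HMC-1.2, where it was highest. It did not pass when 2 groups without HMC-1.2 were fitted alone. Its falls from HMC-1.2 were thus favoured by the filter. LILRB1 and LILRB4, receptors for MHC class I and for other surface and matrix ligands, had 0 counts in all 12 libraries. A count of 0 allows up to 3 counts, which is 0.0695 to 0.103 CPM (a count scaled to a fixed library size) depending on the library, for counting error only. CD300LF had 1 count in 4 of the libraries and 0 in the others. The 3 genes were thus not detectable at this depth, or nearly so, in any group.

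By FPKM, which corrects a count for depth and transcript length and is hence comparable between genes, CD300A stood highest of the set in every group, and FCGR2A came next. In CD300A, which encodes a receptor for phospholipids exposed on dying cells, the FPKM was 95.9, 94.0 and 98.3 in HMC-1.1 cells, 91.6, 91.4 and 95.3 in HMC-1.2 cells, 101.5, 100.2 and 95.2 in HMC-1.3 clone 1 and 123.8, 129.2 and 118.0 in clone 2. Only clone 2 lay apart from the other groups, and these overlapped. FCGR2A was at 37.9 to 42.2 FPKM in HMC-1.1 cells, 42.9 to 46.4 in HMC-1.2 cells, 46.6 to 49.3 in clone 1 and 34.7 to 38.3 in clone 2. The order was clone 1, HMC-1.2, HMC-1.1 and clone 2, and the lowest pair overlapped. At the other end, CD200R1 was at 0.0400 to 0.320 FPKM, from 4 to 28 counts per library.

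**Figure D1:**
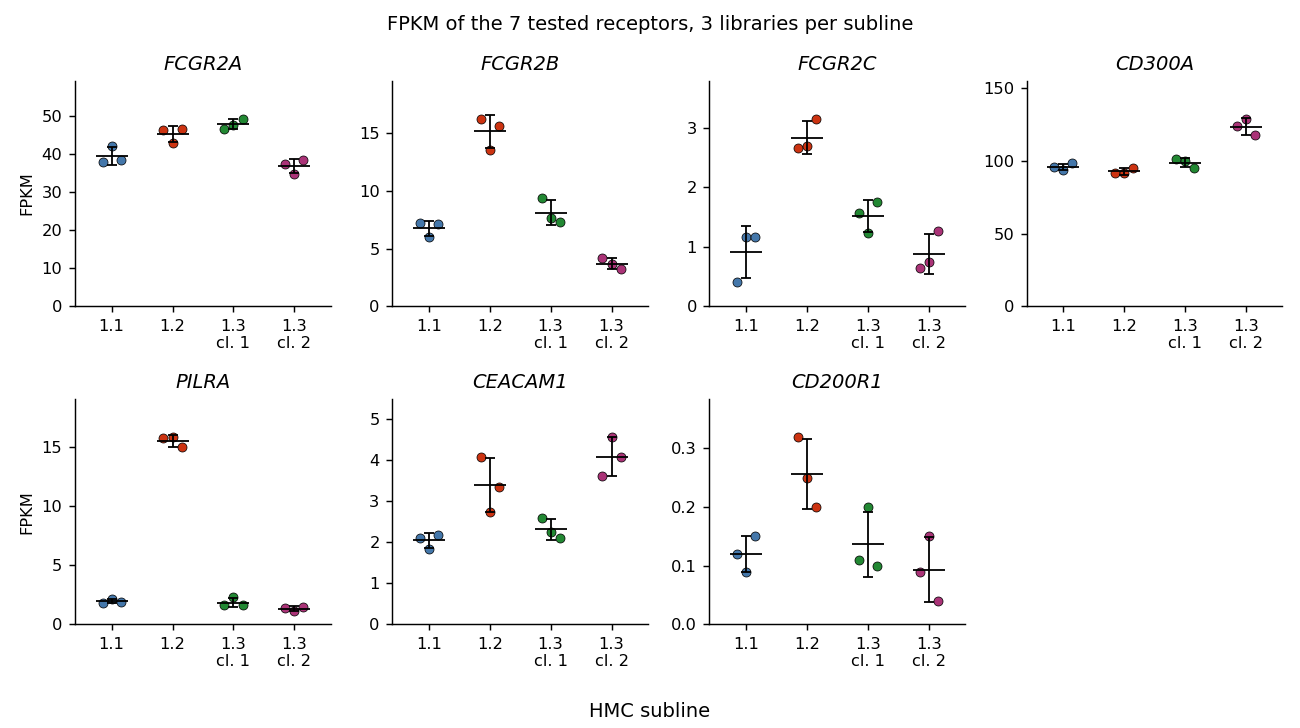
FPKM (y axis, linear from 0, own scale per panel) of the 7 tested receptor genes in the 4 groups, named under the axis; each point is 1 library, and the bar and whiskers are the mean and SD of 3 libraries. PILRA, FCGR2B and FCGR2C were highest in all 3 HMC-1.2 libraries, at 15 to 15.9, 13.6 to 16.3 and 2.66 to 3.16 FPKM, while CD300A was highest in clone 2.

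The call for a change required both a fold over 1.5 and an adjusted p under 0.05 (quasi-likelihood test of edgeR, Benjamini-Hochberg over all 15944 genes tested). The first question of the design was what differs between HMC-1.2, with both KIT variants, and the lines with one of them. Against HMC-1.2, 5 of the 7 tested receptors fell in clone 1 (PILRA, FCGR2B, FCGR2C, CD200R1 and CEACAM1), where 20.0% of all genes tested were called in either direction. In clone 2, 4 fell (the same without CEACAM1), where 16.4% of all genes were called. In HMC-1.1, which has V560G alone, the 5 genes of clone 1 fell as well, where 17.5% of all genes were called. None of the 7 rose in these 3 comparisons. The median log2 fold change of the 7 was -0.94, -1.88 and -1.15 in clone 1, clone 2 and HMC-1.1, and that of all genes tested was 0.01, 0.00 and 0.01. HMC-1.2 libraries enter all 3 comparisons, which therefore are not independent of each other. CD200R1 was among the 7 only through its level in HMC-1.2, so its falls add no support to these counts and medians. With 7 genes a median is the value of 1 gene, which was FCGR2B in clone 1, FCGR2C in clone 2 and CD200R1 itself in HMC-1.1. FCGR2B and FCGR2C share reads, so their falls are not independent of each other.

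**Figure D2:**
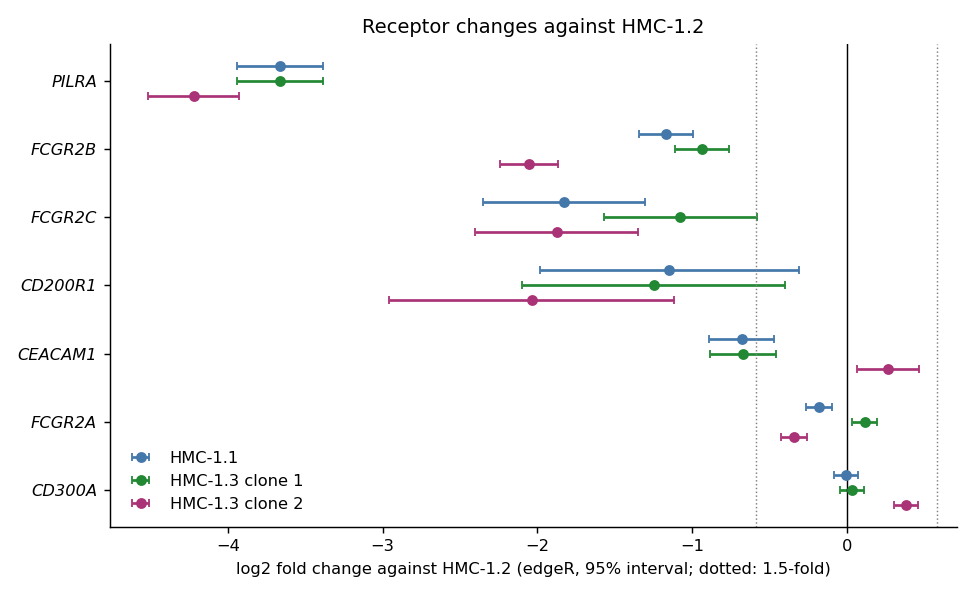
Log2 fold change against HMC-1.2 (x axis) of the 7 tested receptor genes in HMC-1.1, clone 1 and clone 2, as estimated by edgeR with 95% intervals; the solid line marks no change and the dotted lines a 1.5-fold change either way. PILRA lies near -4 in every group, FCGR2A and CD300A lie inside the dotted lines, and CEACAM1 lies left of 0 in HMC-1.1 cells and clone 1 but right of it in clone 2.

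PILRA encodes the inhibitory member of a receptor pair whose activating member is PILRB. Its expected counts were 559, 472 and 424 in HMC-1.2 cells, 38, 49 and 48 in HMC-1.1 cells, 41.1, 49 and 41.2 in clone 1 and 29, 26 and 40 in clone 2. Every HMC-1.2 library was far above every other library. Corrected for depth, clone 2 lay below the other lines, at 0.663 to 0.926 CPM against 1.16 to 1.33 in clone 1 and 1.01 to 1.36 in HMC-1.1, which overlapped. The log2 fold change against HMC-1.2 was -3.66 ± 0.13 (SE) in clone 1 (edgeR, adjusted p = 1.07e-16), or 12.7-fold lower. In clone 2 it was -4.22 ± 0.14 (edgeR, adjusted p = 2.03e-17), and in HMC-1.1 it was -3.66 ± 0.13 (edgeR, adjusted p = 1.09e-16). PILRA ranked 124th from the lowest of the 15944 log2 fold changes in clone 1 and 95th in clone 2. PILRB was not called in any of these comparisons, with log2 fold changes of -0.27 for clone 1, -0.21 for clone 2 and -0.06 for HMC-1.1, and its FPKM was 11.4 to 19 over all libraries. Over the counts of PILRA and PILRB together the log2 fold change was smaller, -0.84 for clone 1, -0.81 for clone 2 and -0.64 for HMC-1.1, and still called. Between clone 1 and HMC-1.1 the log2 difference in PILRA was 0.00 (95% interval -0.35 to 0.35).

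FCGR2B, the inhibitory IgG receptor gene, had expected counts of 837, 613 and 665 in HMC-1.2 cells, 454, 421 and 388 in clone 1, 372, 343 and 394 in HMC-1.1 cells and 202, 218 and 198 in clone 2. HMC-1.2 was above and clone 2 below all other libraries, and clone 1 and HMC-1.1 overlapped in counts though not in FPKM (7.31 to 9.38 against 6.01 to 7.18). The log2 fold change against HMC-1.2 was -0.94 ± 0.08 in clone 1 (edgeR, adjusted p = 1.18e-09), -2.06 ± 0.09 in clone 2 (edgeR, adjusted p = 3.34e-15) and -1.17 ± 0.08 in HMC-1.1 cells (edgeR, adjusted p = 3.73e-11). These are 1.91-fold, 4.16-fold and 2.25-fold lower levels. Between clone 1 and HMC-1.1 the log2 difference was 0.23 (95% interval 0.05 to 0.41), with an adjusted p of 0.0667 in edgeR's test.

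FCGR2A, by contrast, was not called in any of the 6 comparisons. Its log2 fold change against HMC-1.2 was 0.11 ± 0.04 for clone 1, -0.34 ± 0.04 for clone 2 and -0.18 ± 0.04 for HMC-1.1. The adjusted p was under 0.05 in each (edgeR, 0.0148, 1.45e-07 and 0.000507), so the differences exceeded the spread between libraries while staying under 1.5-fold.

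The balance between the activating and the inhibitory gene was therefore compared directly, as the log2 ratio of FCGR2B to FCGR2A counts in each library. Counts are not corrected for transcript length, so the ratio is read between groups only. It was -1.71 to -1.48 in HMC-1.2 cells, -2.69 to -2.49 in HMC-1.1 cells, -2.72 to -2.51 in clone 1 and -3.56 to -3.18 in clone 2. HMC-1.2 stood above all other libraries and clone 2 below them, with HMC-1.1 and clone 1 overlapping in between. The group means spanned 1.71 on the log2 scale, and an exact permutation test over all 369600 assignments of the 12 libraries to 4 groups gave p = 0.00032 (one-sided on the sum of squares between groups, where the smallest p possible is 6.5e-05). Read as a share, FCGR2B made up 24.2% ± 1.57 (SD, n = 3) of the counts of the 3 FCGR2 genes in HMC-1.2 cells, 14.2% ± 0.831 in HMC-1.1 cells, 13.6% ± 0.990 in clone 1 and 9.13% ± 1.24 in clone 2. In place of FCGR2B alone, FCGR2B plus FCGR2C gave a span of 1.69 (p = 0.00052 in the same exact test). The log2 fold changes of this sum against HMC-1.2 were -0.95 for clone 1, -2.04 for clone 2 and -1.22 for HMC-1.1. By construction, the sum is free of the division of reads between FCGR2B and FCGR2C. It does not cover reads shared with FCGR2A, nor the level of FCGR2C alone. Over the 3 FCGR2 genes together, where FCGR2A holds most reads, the log2 fold change was -0.10 for clone 1, -0.64 for clone 2 and -0.40 for HMC-1.1, and only that of clone 2 was called.

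**Figure D3:**
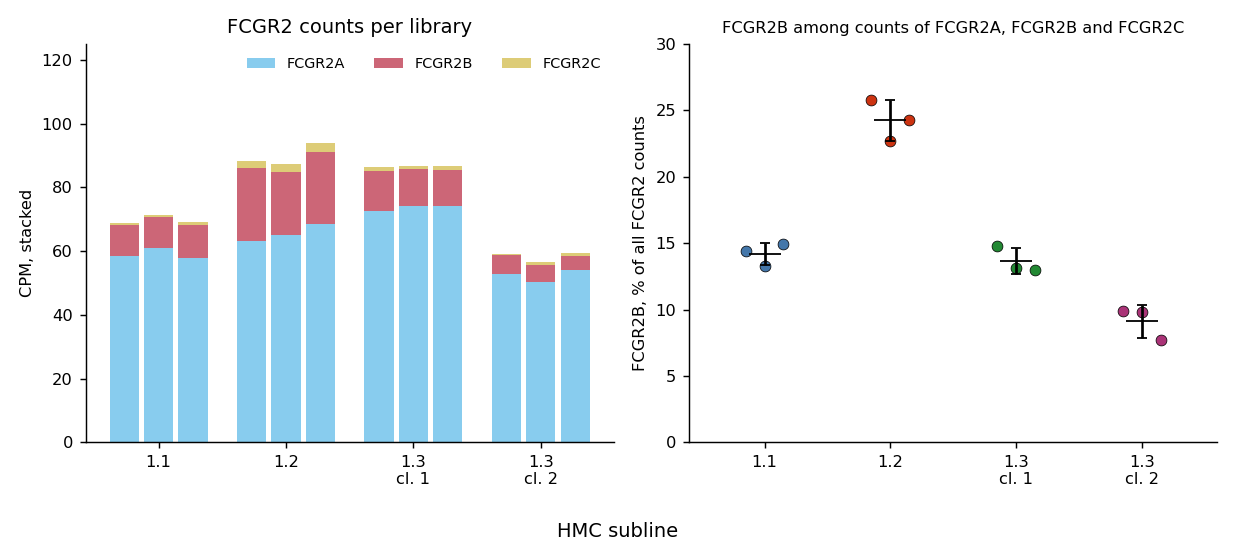
Left, CPM (stacked) of FCGR2A, FCGR2B and FCGR2C in each of the 12 libraries by subline. Right, FCGR2B counts as a percentage of all FCGR2 counts, with 1 point per library and the mean and SD of 3; the share was 24.2% in HMC-1.2 cells, 14.2% in HMC-1.1 cells, 13.6% in clone 1 and 9.13% in clone 2.

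FCGR2C had 79.6, 79.4 and 77.7 expected counts in HMC-1.2 cells, 39.6, 42.7 and 46.4 in clone 1, 16.8, 27.1 and 34.8 in HMC-1.1 cells and 15.9, 26.1 and 38.4 in clone 2. All HMC-1.2 libraries were above all others. The log2 fold change was -1.08 ± 0.24 in clone 1 (edgeR, adjusted p = 0.000454), -1.88 ± 0.25 in clone 2 (edgeR, adjusted p = 1.37e-06) and -1.83 ± 0.25 in HMC-1.1 cells (edgeR, adjusted p = 1.79e-06). In counts, the libraries of HMC-1.1 and clone 2 overlapped, and the highest of them, at 34.8 and 38.4, lay just under the lowest of clone 1. Corrected for depth, HMC-1.1 (0.447 to 0.912 CPM) and clone 2 (0.458 to 0.890) lay below clone 1 (1.11 to 1.35). By FPKM, clone 2 (0.640 to 1.26) overlapped clone 1 (1.23 to 1.75). The call in clone 1 was lost with edgeR's glmTreat against 1.5-fold (adjusted p = 0.0529).

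CEACAM1 encodes an adhesion receptor that binds its own kind on neighbouring cells. It had 405, 268 and 297 counts in HMC-1.2 cells, 252, 216 and 244 in HMC-1.1 cells, 235, 230 and 229 in clone 1 and 377, 537 and 512 in clone 2. By FPKM, clone 2 (3.6 to 4.56) overlapped HMC-1.2 (2.74 to 4.06), and clone 1 (2.1 to 2.59) overlapped HMC-1.1 (1.84 to 2.17) below them. CEACAM1 fell in clone 1 (log2 fold change -0.67 ± 0.10, edgeR, adjusted p = 5.27e-06) and in HMC-1.1 cells (-0.68 ± 0.10, edgeR, adjusted p = 5.41e-06). These falls were 1.59-fold and 1.60-fold, just past the limit of 1.5, and neither was called when the test itself was against a 1.5-fold change (edgeR's glmTreat, adjusted p = 0.432 and 0.433). With limma on log2(FPKM + 1) both were under 1.5-fold (log2 fold changes -0.40 and -0.52). With limma on log2(FPKM + 0.1) that in clone 1 was as well (-0.52). In clone 2 the log2 fold change was 0.27 ± 0.10, with an adjusted p of 0.0247 in edgeR's test and a fold under 1.5.

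CD200R1, the lowest of the tested genes, had 28, 18 and 13 counts in HMC-1.2 cells, 10, 7 and 14 in HMC-1.1 cells, 9, 13 and 6 in clone 1 and 7, 6 and 4 in clone 2. In counts HMC-1.2 overlapped HMC-1.1 and touched clone 1. Corrected for depth, HMC-1.2 (0.445 to 0.761 CPM) lay above HMC-1.1 (0.194 to 0.367) and clone 1 (0.174 to 0.352), which overlapped each other and clone 2 (0.0926 to 0.202). The log2 fold changes were -1.25 ± 0.41 in clone 1 (edgeR, adjusted p = 0.0117), -2.04 ± 0.44 in clone 2 (edgeR, adjusted p = 0.000533) and -1.15 ± 0.40 in HMC-1.1 cells (edgeR, adjusted p = 0.0201). The call in clone 1 was lost without HMC-1.2 replicate 1 (adjusted p = 0.0782) or clone 1 replicate 3 (adjusted p = 0.0624). The call in HMC-1.1 was lost without HMC-1.2 replicate 1 (adjusted p = 0.119) or HMC-1.1 replicate 1 or 2 (adjusted p = 0.0565 and 0.0942), all by edgeR. The calls in clone 1 and HMC-1.1 were also lost with edgeR's glmTreat against 1.5-fold (adjusted p = 0.142 and 0.237). Both were lost with limma on log2(FPKM + 1) and log2(FPKM + 0.1) too. In clone 2 the call was lost with limma on log2(FPKM + 1), at a log2 fold change of -0.20. CD200R1 passed the filter only through HMC-1.2, which favours a fall in the other lines.

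CD300A was not called anywhere. Its log2 fold change against HMC-1.2 was 0.03 ± 0.04 in clone 1, 0.38 ± 0.04 in clone 2 (edgeR, adjusted p = 8.28e-09, a 1.31-fold difference) and -0.01 ± 0.04 in HMC-1.1.

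The next question was how the lines with 1 variant compare among themselves. Between clone 1 and HMC-1.1, which carry different KIT variants, 0 of the 7 receptors were called by edgeR, where 1.01% of all genes were called. DESeq2 called 0 as well. In edgeR 3 of them, FCGR2A, FCGR2B and FCGR2C, had an unadjusted p under 0.05, and FCGR2A alone an adjusted one (log2 difference 0.29, edgeR, adjusted p = 1.14e-05). Of all genes tested, 19% had an adjusted p under 0.05 in this comparison, and the share for the unadjusted p was not taken. FCGR2C, at 0.75 and an adjusted p of 0.0526 in edgeR, lay just short of the threshold, and it passed in some alternatives, as given under the dependence on processing. Between clone 2 and HMC-1.1, 2 of 7 were called, where 8.12% of all genes were called. CEACAM1 was higher in clone 2 (log2 difference 0.95 ± 0.10, edgeR, adjusted p = 6.47e-08) and FCGR2B lower (-0.89 ± 0.09, edgeR, adjusted p = 8.88e-08).

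The clones have the same intended KIT genotype. Between them 3 of 7 receptors were called, where 12.6% of all genes were called. FCGR2B was higher in clone 1 than in clone 2 by 1.12 ± 0.09 on the log2 scale (edgeR, adjusted p = 8.37e-10), and FCGR2C by 0.80 ± 0.27 (edgeR, adjusted p = 0.0158). CEACAM1 was lower in clone 1 by a log2 difference of -0.94 ± 0.10 (edgeR, adjusted p = 4.11e-08). The call for FCGR2C was lost without clone 2 replicate 1 (edgeR, adjusted p = 0.0785), with edgeR's glmTreat against 1.5-fold (adjusted p = 0.735) and with limma on log2(FPKM + 1) or log2(FPKM + 0.1) (adjusted p = 0.0636 and 0.0862). PILRA differed by 0.56 (edgeR, adjusted p = 0.0128), a 1.47-fold difference just under the limit, and it passed 1.5-fold without clone 2 replicate 3 (0.67) or clone 1 replicate 1 (0.59).

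Some Fc and activating receptors have no signalling motif of their own and depend on partner chains. Of 20 other Fc receptor and partner genes, 7 were tested. In clone 1, 2 rose and 3 fell against HMC-1.2, in clone 2, 1 rose and 2 fell, and in HMC-1.1 cells, 2 rose and 3 fell. Of all genes tested, 20.0%, 16.4% and 17.5% were called in these comparisons, with medians of 0.01, 0.00 and 0.01. The median log2 fold change of the 7 was -0.04, 0.06 and -0.20. FCER1G encodes the common gamma chain, which carries an ITAM and serves the IgE receptor and FCGR1A. FCER1G was at 1.14 to 2.43 FPKM in HMC-1.2 cells, 9.81 to 10.7 in clone 2, 91.1 to 97.8 in clone 1 and 92.0 to 95.8 in HMC-1.1. Its log2 fold change against HMC-1.2 was 5.76 ± 0.12 in clone 1 (edgeR, adjusted p = 1.94e-21), 2.55 ± 0.16 in clone 2 (edgeR, adjusted p = 4.48e-12) and 5.74 ± 0.12 in HMC-1.1 cells (edgeR, adjusted p = 2.15e-21). Every HMC-1.2 library was lowest, and clone 2 lay between them and the other lines, which overlapped. The high-affinity IgG receptor gene FCGR1A, at 1.18 to 1.68 FPKM in HMC-1.2, had log2 fold changes of -2.37 for clone 1, -2.38 for clone 2 and -3.01 for HMC-1.1. By mean FPKM its fall in the clones was smaller, from 1.45 to 0.58 in clone 1 and 0.45 in clone 2. Replicate 1 was the highest of each clone, at 1.07 and 0.90 FPKM. MS4A2, the beta chain of the IgE receptor, was at most 0.450 FPKM in any library and fell in all 3. Its mean was 0.650 CPM in HMC-1.2 against 0.207 in clone 1 and 0.152 in clone 2. It passed the filter through HMC-1.2, so its falls add no support to the counts above. The falls in clone 1 and HMC-1.1 cells include FCER1A, at a mean of 0.131 CPM in clone 1 against 0.951 in HMC-1.2. The rises there include FCGRT, at 0.161 CPM in HMC-1.2 against 0.824 in clone 1 and 0.660 in HMC-1.1 cells. Both passed the filter through the groups where they were high, so they add no support either.

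Of 37 other paired and inhibitory receptors with their partner chains, 13 were tested. In clone 1, 6 fell and 1 rose, in clone 2, 9 fell, and in HMC-1.1 cells, 6 fell. The share of all genes called was 20.0%, 16.4% and 17.5%. The median log2 fold change of the 13 was -0.57, -1.36 and -0.52. LAIR1, a collagen receptor with ITIMs, was at 78.3 to 79.5 FPKM in HMC-1.2, a mean of 7.31 in clone 1, 5.01 to 6.43 in HMC-1.1 cells and 2.20 to 2.31 in clone 2. For LAIR1 the log2 fold change was -3.42 ± 0.05 for clone 1, -5.12 ± 0.06 for clone 2 and -3.65 ± 0.06 for HMC-1.1. It was the only tested gene of the LILR cluster to which LILRB1 and LILRB4 belong. TYROBP, the ITAM partner chain known as DAP12 that serves PILRB, went from 114.2 to 120.2 FPKM in HMC-1.2 to 30.4 to 33.2 in clone 1, 31.6 to 39.3 in HMC-1.1 cells and 15.4 to 16.4 in clone 2. HCST, the DAP10 chain, fell too, with log2 fold changes of -1.52 in clone 1 and -2.71 in clone 2. SIRPA, an ITIM receptor for CD47, fell from 2.13 to 2.22 FPKM in HMC-1.2 cells to at most 0.870 in the clones, and SIRPB1, its TYROBP-coupled relative, fell from a mean of 7.35 FPKM to 3.61 in clone 1. CD300C, the activating relative next to CD300A, had log2 fold changes of -0.62 and -0.70, both called, and in HMC-1.1 its -0.52 was under the limit.

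**Figure D4:**
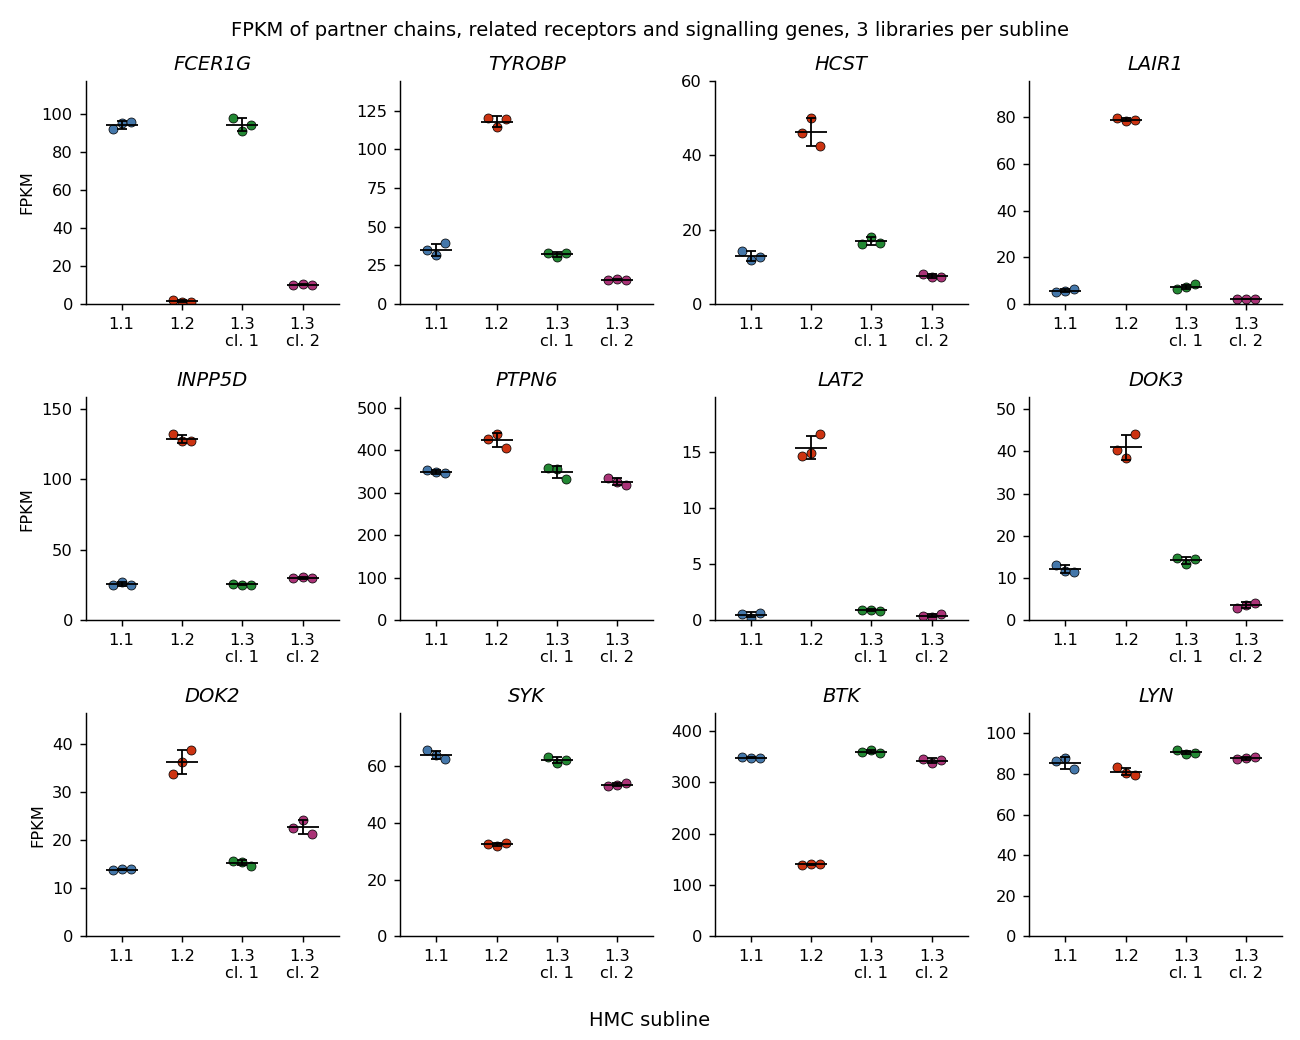
FPKM (y axis, linear from 0, own scale per panel) of 12 partner chains, related receptors and signalling genes in the 4 groups, with 1 point per library and the mean and SD of 3. FCER1G, SYK and BTK were lowest in HMC-1.2, whereas TYROBP, HCST, LAIR1, INPP5D, LAT2, DOK3 and DOK2 were highest there, and LYN was at 79.6 to 91.6 FPKM over all libraries.

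Of 28 genes for signalling next to ITIMs and ITAMs, 25 were tested. In clone 1, 3 rose and 4 fell, in clone 2, 3 rose and 6 fell, and in HMC-1.1 cells, 3 rose and 5 fell. The share of all genes called was 20.0%, 16.4% and 17.5%. The median log2 fold change of the 25 was 0.01, 0.01 and 0.05. INPP5D, the SHIP-1 phosphatase that FCGR2B recruits, averaged 128.5 FPKM in HMC-1.2 cells, 25.5 in clone 1 and 25.6 in HMC-1.1, and was 29.6 to 30.8 in clone 2. INPP5D fell, with log2 fold changes of -2.58 ± 0.03 in clone 1 (edgeR, adjusted p = 6.13e-26) and -2.12 ± 0.03 in clone 2 (edgeR, adjusted p = 1.91e-24). The phosphatases of the other ITIM receptors were not called. PTPN6 had log2 fold changes of -0.33 in clone 1 and -0.40 in clone 2, and PTPN11 of -0.04 and 0.12. DOK2 and DOK3, of the adaptor family through which CD200R1 acts, had log2 fold changes of -1.27 and -1.68 in clone 1 and of -0.74 and -3.57 in clone 2. For the adaptor LAT2 they were -4.48 and -5.16. On the activating side, SYK rose by 0.90 in clone 1 and 0.71 in clone 2, and BTK, a kinase downstream of it, rose from a mean of 140.2 FPKM to 359.2 and 342.3. LYN, the kinase that phosphorylates both kinds of motif, had log2 fold changes of 0.11 and 0.10.

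Of 17 genes for ligands of the receptors, 13 were tested. In clone 1, 2 rose and 1 fell, in clone 2, 2 fell, and in HMC-1.1 cells, 1 rose and 1 fell. These counts are near the share of all genes called (20.0%, 16.4% and 17.5%) and are not read as a result about ligands. The median log2 fold change of the 13 was -0.18, 0.07 and -0.30. CNTFR, listed for binding LILRB4, was the gene lower in both clones, at 0.270 to 0.680 FPKM in HMC-1.2 cells and at most 0.0600 elsewhere. Its mean was 0.710 CPM in HMC-1.2 against 0.0559 in clone 1 and 0.0409 in clone 2. It passed the filter only through HMC-1.2, so it could only be called lower elsewhere and adds no support. CD200, the ligand of CD200R1, was listed at 0 in every library.

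In the FCGR cluster of chromosome 1, 5 of 9 genes were tested, and FCGR2B, FCGR2C and the heat shock gene HSPA6, which lies beside FCGR2A, fell in all 3 comparisons with HMC-1.2. FCGR2A and FCRLB were not called. HSPA6 was at 0.770 to 0.950 FPKM in HMC-1.2 cells and 0.240 to 0.480 in the other groups. RP11-25K21.4, a pseudogene related to HSPA6 that lies between FCGR2C and FCGR2B and was looked up after its values were seen, fell as well, with log2 fold changes of -1.45 for clone 1, -1.81 for clone 2 and -1.59 for HMC-1.1. Reads shared between it and HSPA6 were not examined. Around CD300A, 4 of 9 listed genes were tested, of which CD300C fell in both clones and SLC9A3R1 in clone 1 (log2 fold change -0.83), while RAB37 was not called (-0.12 and -0.47). The share of all genes called was again 20.0% in clone 1 and 16.4% in clone 2. The genes whose levels ran most like those of 4 changed receptors over the 12 libraries, by Pearson's r of log2 CPM among 13108 genes, were POU2F2 (0.997) and DBN1 (0.996) for PILRA, and ARHGAP9 (0.991) and DMTN (0.990) for FCGR2B. They were PBX2 (0.964) and AP3B2 (0.961) for FCGR2C, and RPL23A (0.979) and RNPEP (0.961) for CD200R1. These are descriptions over libraries that form 4 groups, so a gene with the same group order reaches a high r.

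The cells were checked against lists of cell type markers. Of 10 mast cell markers, 8 were over 1 FPKM, and their summed FPKM was 2481 to 2517 in HMC-1.2 cells and 1836 to 1975 in the other groups, so the sum moved with the receptors that were highest in HMC-1.2. The sum followed mostly the tryptase gene TPSAB1, at a mean of 591.9 FPKM in HMC-1.2 cells and 29.4 to 44.2 in the other groups. TPSB2, HDC and MS4A2 were also highest in HMC-1.2. Their means were 96.6 FPKM against 35.0 to 40.7, 1009 against 852.2 to 895.2 and 0.353 against 0.0833 to 0.117. Other markers were lowest in HMC-1.2, with means of 355.6 FPKM against 404.6 to 450.4 for KIT, 212.5 against 231.6 to 240.2 for GATA2 and 3.31 against 7.52 to 10.9 for CPA3. SIGLEC6 was lowest there too, at a mean of 224.65 FPKM against 268.0 to 309.7. By mean, HPGDS and FCER1A were neither highest nor lowest in HMC-1.2. For 8 monocyte and macrophage markers, of which 2 were over 1 FPKM, the sum was 15.3 to 17.8 in HMC-1.2 cells and 17.1 to 22.6 elsewhere. None of 5 B cell markers was over 1 FPKM. Of 7 T and NK cell markers, 2 were at 0 in every library and only NCAM1 was over 1 FPKM, which set the sum at 8.05 to 9.70 in HMC-1.2 cells and at most 1.33 elsewhere. Of 6 neutrophil markers, 2 were at 0 in every library and the sum was 0.120 to 2.47. The part of these levels in the receptor results was not tested, and in bulk RNA fewer cells of a type and less RNA per cell cannot be told apart.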

How the data were processed

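RNA-seq libraries of the 12 cultures were processed by the authors, whose notes list cutadapt 2.10 for trimming, STAR 2.5.3 for alignment to hg38 and RSEM 1.3.0 for gene counts. They deposited RSEM expected counts, of which 7.39% were not whole, and FPKM. Expected counts were rounded for testing. Genes passing edgeR's filterByExpr (15944 of 58381) were scaled by TMM and fitted over all 4 groups with edgeR 4.0.16 (quasi-likelihood, robust, R 4.3.3). Alternatives used DESeq2 1.42.0 and limma 3.58.1, the latter on log2(FPKM + 1) and log2(FPKM + 0.1). The steps were tested on simulated counts. Positions come from Gencode 44 on GRCh38, which holds 99% of the IDs listed. Tail motifs and shared windows were found in its transcripts. The labels mark 3 libraries as resent (HMC-1.2 replicate 1, clone 1 replicate 3 and clone 2 replicate 1). The text names all 10 receptors and, per gene list, up to 6 genes called in both clones in 1 direction by largest mean log2 change, with FCER1G, LYN, PTPN6, PTPN11, INPP5D, TYROBP and CD200, the tested genes of the receptor clusters, and for each changed receptor the 2 genes over 1 CPM with the highest r. Receptors, lists and rules were chosen with earlier results of these data known. The KIT alleles themselves cannot be read from gene counts. Pictures were drawn with matplotlib 3.10.9. The genes whose levels ran most like those of CEACAM1 are not reported here.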

Additional observations from a re-analysis of the deposited data

Results flagged for a closer look

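Several changes against HMC-1.2 differed between the HMC-1.3 clones, by the test of clone 1 against clone 2 itself, in which the shared HMC-1.2 libraries drop out (edgeR, adjusted p under the threshold and a fold over 1.5). As the log2 change in clone 1 minus that in clone 2, the receptors were FCGR2B (1.12), FCGR2C (0.80) and CEACAM1 (-0.94). That of FCGR2C was not called with glmTreat, with limma on FPKM or without clone 2 replicate 1. For CEACAM1 the changes against HMC-1.2 also had opposite signs, -0.67 in clone 1 and 0.27 in clone 2. Among the partner and signalling genes named in the report the same difference was 3.21 for FCER1G, 1.71 for LAIR1, 1.07 for TYROBP, 1.19 for HCST, 0.67 for LAT2 and 1.89 for DOK3. The other genes of the 4 lists with such a difference were FCER1A (-2.95), CD72 (2.04), MILR1 (1.66), FCGRT (1.16), PIANP (0.93), CEACAM21 (0.79) and PAG1 (0.78). FCER1A, the IgE-binding chain, went the other way, as it was -2.89 from HMC-1.2 in clone 1 on the log2 scale and 0.06 in clone 2. FCER1A, FCGRT and PIANP had few reads. Their mean CPM in clone 1 and clone 2 was 0.131 and 1.01, 0.824 and 0.354, and 0.616 and 0.313. A gene this low can pass the filter through the groups where it is high, so these 3 differences add no support. MILR1 had opposite signs, 0.82 in clone 1 and -0.84 in clone 2. In FCGR2B, FCGR2C, LAIR1, TYROBP, HCST, LAT2 and DOK3, clone 2 lay farther below HMC-1.2 than clone 1 did. Groups of 3 libraries were too small for a check of single outlying libraries.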

How the results depend on the processing

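Over 879 recomputed values of single receptors, 817 kept their direction and side of the threshold, 24 lost the call, 9 gained it and 29 changed sign. The sign changes fell on 5 differences, and 0 of the 29 values were called before or after. For PILRA between clone 1 and HMC-1.1 the log2 difference was -0.0090 with DESeq2, -0.0079 with RLE factors, -0.0020 with no filter, -0.0057 with only the 2 groups compared, -0.0086 with the term for resent libraries, -0.056 and -0.086 with limma on log2(FPKM + 1) and log2(FPKM + 0.1), and -0.11 to 0.080 with 1 library left out. For CEACAM1 in that comparison it was -0.00047 with DESeq2 and -0.042 to 0.047 with 1 library left out, and for CD200R1 it was 0.021 and 0.090 with limma and -0.39 to 0.16 with 1 left out. For CD300A between HMC-1.1 and HMC-1.2 it was 0.050 with either limma and -0.027 to 0.011 with 1 left out. For FCGR2C between clone 2 and HMC-1.1 it was 0.0045 with the resent term, 0.017 with limma on log2(FPKM + 0.1) and -0.30 to 0.20 with 1 left out. Summed with their paralogs, uncalled values also changed sign for FCGR2A (-0.10) and CD300A (-0.025, with CD300C) in clone 1 against HMC-1.2, and for PILRA with PILRB in clone 1 against HMC-1.1 (-0.20) and clone 2 (-0.028). The count of called receptors moved by over 1.5 times in 3 comparisons. For clone 1 against HMC-1.2 (5 called) it was 2 with glmTreat against 1.5-fold and 3 with limma on either log2(FPKM + 1) or log2(FPKM + 0.1). For HMC-1.1 against HMC-1.2 (5 called) it was 3 with glmTreat and 3 with limma on log2(FPKM + 1). For clone 1 against HMC-1.1 (0 called) it was 1, FCGR2C, with no filter on low counts, 1 with the replicate number as a block, and 0 to 1 with 1 library left out (1 without HMC-1.1 replicate 3, clone 2 replicate 1 or clone 2 replicate 3). The block changed no other call of a receptor. Replicate numbers did not pair the samples (0 of 18 correlations over 0.1, from -0.0433 to 0.0964). CD200R1 in HMC-1.1 was also lost with DESeq2 (adjusted p = 0.074) and with a term for the resent libraries (adjusted p = 0.0519). Over all genes, glmTreat called 1942, 1607, 1619, 11, 561 and 839 in place of 3190, 2619, 2783, 161, 1295 and 2016, and limma on log2(FPKM + 1) called 1904, 1453, 1509, 61, 563 and 968. For clone 1 against HMC-1.1, DESeq2 called 95, and 106 were called without clone 1 replicate 2. The span of the FCGR2B to FCGR2A ratio was 1.58 to 1.84 with 1 replicate number left out and 1.74 on FPKM. Depth limits CD200R1, at 4 to 28 counts.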

Other observations

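The 3 nearest tested genes on each side of PILRA did not share its size of change. Against HMC-1.2 their log2 fold changes ran from -0.62 (STAG3L5P) to 0.05 (PPP1R35) in clone 1 and from -0.85 (ZCWPW1) to -0.12 (MEPCE) in clone 2, beside -3.66 and -4.22 for PILRA. Of the 6 nearest tested genes of each other receptor, those called in clone 1 and in clone 2 numbered 0 and 1 for CEACAM1, 2 and 2 for CD200R1, 3 and 3 for CD300A, 4 and 4 for FCGR2A, 3 and 3 for FCGR2B and 3 and 3 for FCGR2C. Of all genes tested, 20.0% were called in clone 1 and 16.4% in clone 2. The FCGR2 genes count one another and share HSPA6 and RP11-25K21.4, which fell in both clones, as neighbours. These neighbours were looked up after the receptors' values were seen.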
